A study of Mus musculus with 9 samples.

Results

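Podocyte slit diaphragm genes, expressed by the epithelial cell that wraps the glomerular capillaries, were followed across 3 groups of mouse kidneys: Nphs1, Ptpro, Podxl, Magi2, Cd2ap, Synpo, Plce1 and Wt1. They were chosen by symbol, each symbol stood in 1 row, and together they are 8 of the 34310 genes in the table. All 8 passed the expression filter (a mean of at least 0.5 fragments per kilobase per M fragments, FPKM, over the 9 libraries). Poly(A) RNA of whole kidney was sequenced from 3 mice given lipopolysaccharide with thymosin β4 (LPS+Tβ4), 3 mice given lipopolysaccharide alone (LPS) and 3 mice given saline. Lipopolysaccharide is the endotoxin of Gram-negative bacteria and thymosin β4 is a small peptide that binds monomeric actin. The labels give neither dose, time, route, sex, strain nor age, and the study's design names 3 mice per group. The libraries held 53.0 to 62.0 M counts, and the 8 genes had between 95 and 30609 counts in a library.

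Podocytes send out interlocking foot processes, and the gap between neighbouring processes is bridged by the slit diaphragm, the last layer of the filtration barrier that keeps protein out of the urine. Nephrin spans the gap, adaptor proteins tie it to actin inside the foot process, and a negatively charged coat on the apical side keeps the processes apart. Loss of several of these proteins causes nephrotic syndrome in humans or mice. The 8 genes cover more than the diaphragm itself: in the annotation of the table, 3 of them (Nphs1, Podxl and Magi2) carry the Gene Ontology term for the slit diaphragm, out of 10 genes with that term in the table and 7 among those tested. Podxl and Ptpro encode proteins of the apical foot process surface, Synpo an actin partner, Plce1 a signalling enzyme and Wt1 a transcription factor of the podocyte nucleus.

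WT1 is known to activate podocyte genes and, like the EGR factors, binds GC-rich DNA, so the promoters of 3 members with contrasting behaviour are shown: Nphs1 and Ptpro, which fell after LPS, and Cd2ap, which rose. Each run is 300 bases of RefSeq sequence (GRCm38.p6), 250 before and 50 after the annotated start, printed 5′ to 3′ on the gene's strand. Capitals mark every match to GNGGGNG on either strand, a 7-base pattern contained in such GC-rich sites. Nphs1 is read from chr7:30459808-30460107 (plus strand), Ptpro from chr6:137252049-137252348 (plus strand) and Cd2ap from chr17:42876375-42876674 (minus strand). The Nphs1 window lies inside the span of the counted gene, which begins at 30458315. For Ptpro the bases after the RefSeq start were not found in a GENCODE transcript of the gene, unlike those of Nphs1 and Cd2ap.
Nphs1: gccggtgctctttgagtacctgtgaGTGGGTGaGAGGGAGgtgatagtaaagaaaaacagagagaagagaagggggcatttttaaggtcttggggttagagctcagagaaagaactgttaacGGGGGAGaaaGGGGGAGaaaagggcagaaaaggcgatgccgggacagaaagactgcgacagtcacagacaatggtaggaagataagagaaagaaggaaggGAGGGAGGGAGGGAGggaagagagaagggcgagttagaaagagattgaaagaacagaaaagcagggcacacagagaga
Ptpro: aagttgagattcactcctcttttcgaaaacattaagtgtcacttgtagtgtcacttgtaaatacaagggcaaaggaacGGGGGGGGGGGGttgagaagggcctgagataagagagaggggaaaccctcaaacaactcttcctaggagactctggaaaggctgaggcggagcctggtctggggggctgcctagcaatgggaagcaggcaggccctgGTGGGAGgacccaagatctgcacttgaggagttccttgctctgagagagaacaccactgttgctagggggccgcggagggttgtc
Cd2ap: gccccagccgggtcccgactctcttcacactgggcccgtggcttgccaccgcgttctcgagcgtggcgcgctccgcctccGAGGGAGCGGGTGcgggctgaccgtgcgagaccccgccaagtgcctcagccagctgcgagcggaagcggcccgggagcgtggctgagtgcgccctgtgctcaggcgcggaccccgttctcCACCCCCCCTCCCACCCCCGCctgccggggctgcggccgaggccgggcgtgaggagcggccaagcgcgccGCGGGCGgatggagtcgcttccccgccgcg
Nphs1 held 7 matches, Ptpro 7 and Cd2ap 9, counting overlapping ones separately, and 6 of those in Ptpro lie in a single run of G. All 7 in Nphs1 are on the gene's strand, while 6 of the 9 in Cd2ap are on the other strand. The pattern is common: 64.7% of 32851 promoter windows of this length held it, with a median of 1. A window was found for 5 of the 8 genes. The others with one were Magi2, with 3 and 2 matches in its 2 windows, and Plce1, with 0. The matches describe letters and were not tested for binding.

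Per length, and as a mean over the 9 libraries, Podxl was the highest of the 8 genes at 30.4 FPKM, followed by Cd2ap at 15.2 and Synpo at 5.43. Below them came Nphs1 at 3.01, Ptpro at 1.99, Wt1 at 1.15, Plce1 at 0.594 and Magi2 at 0.555 FPKM. The ranges over libraries of all neighbours in this order overlap, from 14.2 to 41 FPKM for Podxl and 6.11 to 30.6 for Cd2ap, for example, and from 0.307 to 0.815 for Plce1 and 0.221 to 1.02 for Magi2. Levels below are counts per M after TMM scaling (CPM), which compare libraries and not genes. Changes are given on the log2 scale with the SE from edgeR, p-values were adjusted over all 15015 tested genes, and a gene passed below 0.05.

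LPS against saline asked what endotoxin did to these transcripts. Of the 8 genes, 3 fell (Nphs1, Ptpro and Podxl) and 1 rose (Cd2ap), and the other 4 had estimates below 0 that did not pass. Calls were common in this comparison: 20.9% of all tested genes rose and 22.2% fell, so 43.1% were called in either direction, and the 4 of 8 called here stand near that share. LPS and saline libraries stood apart for 6 of the 8 genes (1 higher, 5 lower), as they did for 54.3% of all tested genes (25.8% higher, 28.5% lower). The median change of the 8 genes was -1.01, beside 0.02 over all tested genes. In RNA of whole kidney, fewer podocytes and less of a transcript per podocyte cannot be told apart.

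LPS+Tβ4 against LPS asked what the peptide changed under endotoxin. Ptpro rose and no other of the 8 genes passed, in a comparison that called 6.83% of all tested genes, 4.5% higher and 2.33% lower. Estimates were above 0 for 7 of the 8 genes, with a median of 0.57 beside -0.01 over all tested genes. LPS+Tβ4 and LPS libraries stood apart for 3 genes, all higher with Tβ4 (Nphs1, Ptpro and Podxl), as they did for 26.3% of all tested genes (14.4% higher, 11.9% lower). Between LPS+Tβ4 and saline, Nphs1 was lower and no other of the 8 passed, where 24.1% of all tested genes were called, 12.3% higher and 11.8% lower. There the libraries stood apart for 3 genes (Nphs1 and Wt1 lower, Cd2ap higher), as for 50.9% of all tested genes (24.7% higher, 26.2% lower), and the median was -0.17 beside 0.00. The comparisons share libraries, LPS in one pair and saline in another, so their values are given side by side and are not independent.

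**Figure D1:**
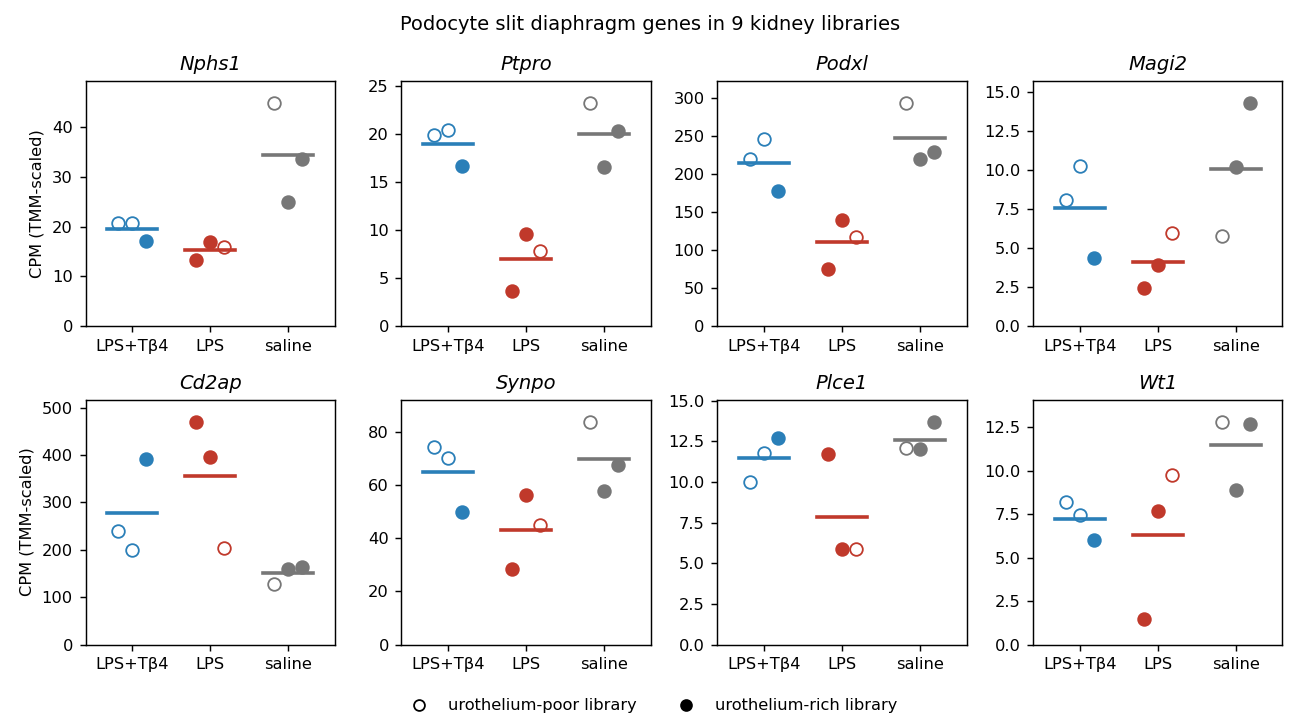
Level of each gene in counts per M after TMM scaling, 1 point per library and a line at the group mean, with LPS+Tβ4, LPS and saline from left to right; filled points are libraries with more than 10 CPM of urothelial transcripts. Ptpro and Podxl sit low in the 3 LPS libraries only, Nphs1 sits low in both LPS groups, and Cd2ap is the gene with its lowest points in saline.

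Nphs1 (ENSMUSG00000006649, GRCm38 chromosome 7, 30458315 to 30487223) encodes nephrin, the adhesion protein whose extracellular parts meet in the slit. It had 20.7, 20.7 and 17.1 CPM in the LPS+Tβ4 libraries, 13.2, 16.9 and 15.8 CPM in the LPS libraries, and 44.8, 24.9 and 33.5 CPM in the saline libraries. Every saline library was above every library of both other groups, and the LPS+Tβ4 libraries were all just above the LPS libraries. Group means were 19.5 ± 2.08, 15.3 ± 1.87 and 34.4 ± 9.98 CPM (LPS+Tβ4, LPS and saline, SD, n = 3 each). Nphs1 fell in LPS kidneys to 0.446 times its saline level, a change of -1.17 ± 0.22 (edgeR adjusted p = 0.0035). It was also lower in LPS+Tβ4 than in saline kidneys, by -0.82 ± 0.22 (edgeR adjusted p = 0.028). Against LPS the estimate was 0.35, with a 95% interval of -0.15 to 0.84 (edgeR adjusted p = 0.36). The lower level in LPS+Tβ4 than in saline kidneys lost its call in 5 of the 9 fits that left out a library: it was -0.53 without saline replicate 1 (adjusted p = 0.11), -0.80 without saline replicate 3 (0.082), and -0.86, -0.86 and -0.71 without LPS+Tβ4 replicates 1, 2 and 3 (0.07, 0.061 and 0.096, all from edgeR). A ribosomal pseudogene, Rps12-ps4, lies on the opposite strand within Nphs1 and had 14.9, 17.8 and 11.7 CPM in the LPS+Tβ4, LPS and saline groups, and whether its reads could reach the Nphs1 count was not tested.

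Ptpro (ENSMUSG00000030223, chromosome 6, 137252319 to 137463233) encodes GLEPP1, a receptor tyrosine phosphatase of the apical foot process membrane that is also made in brain. Its levels were 19.9, 20.4 and 16.7 CPM in the LPS+Tβ4 libraries, 3.63, 9.57 and 7.84 CPM in the LPS libraries, and 23.2, 16.6 and 20.3 CPM in the saline libraries. The LPS libraries lay below all others, with replicate 1 the lowest, and the LPS+Tβ4 and saline ranges overlapped. The means were 19 ± 2, 7.01 ± 3.06 and 20 ± 3.35 CPM in LPS+Tβ4, LPS and saline kidneys (SD, n = 3 each). Ptpro fell in LPS kidneys to 0.35 times the saline level (-1.51 ± 0.33, edgeR adjusted p = 0.0066). In LPS+Tβ4 kidneys it rose to 2.71 times the LPS level (1.44 ± 0.33, edgeR adjusted p = 0.04). LPS+Tβ4 and saline differed by -0.07, with an interval of -0.81 to 0.66 (edgeR adjusted p = 0.89).

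The direction of the Ptpro rise held in every fit tried, from 0.94 to 2.19, while its call did not: 14 of 22 alternatives ended it. Of the 9 fits that left out a library, 1 kept the call, the fit without LPS replicate 1 (1.12, edgeR adjusted p = 0.011). Without saline replicates 1, 2 and 3 the edgeR adjusted p was 0.063, 0.066 and 0.075, without LPS replicates 2 and 3 it was 0.07 and 0.074, and without LPS+Tβ4 replicates 1, 2 and 3 it was 0.11, 0.15 and 0.053. DESeq2 gave 1.43 (adjusted p = 0.00095).

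Podxl (ENSMUSG00000025608, chromosome 6, 31519488 to 31563981) encodes podocalyxin, the sialylated protein of the apical coat, which endothelial cells also make. It had 220, 246 and 178 CPM in the LPS+Tβ4 libraries, 75.6, 139 and 117 CPM in the LPS libraries, and 293, 220 and 229 CPM in the saline libraries. As for Ptpro, the LPS libraries were the 3 lowest and the other groups overlapped. Means were 215 ± 34.5, 110 ± 32 and 247 ± 39.7 CPM in LPS+Tβ4, LPS and saline kidneys (SD, n = 3 each). Podxl fell in LPS kidneys to 0.447 times the saline level (-1.16 ± 0.24, edgeR adjusted p = 0.0053). LPS+Tβ4 kidneys had 1.94 times the LPS level (0.96, interval 0.41 to 1.51), which did not pass (edgeR adjusted p = 0.0503). It passed without LPS replicate 1 (0.74, edgeR adjusted p = 0.036) and in DESeq2 (0.95, adjusted p = 0.0043). Against saline, LPS+Tβ4 gave -0.20 with an interval of -0.74 to 0.34 (edgeR adjusted p = 0.58).

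Magi2 (ENSMUSG00000040003, chromosome 5, 19227036 to 20704792) encodes a scaffold that binds nephrin in podocytes and also serves at synapses. It was the lowest of the 8 per length, with 160 to 775 counts in a library. Magi2 had 8.06, 10.3 and 4.38 CPM in the LPS+Tβ4 libraries, 2.46, 3.91 and 6 CPM in the LPS libraries, and 5.78, 10.2 and 14.3 CPM in the saline libraries. All 3 groups overlapped. LPS against saline gave -1.29 with an interval of -2.36 to -0.23 (edgeR adjusted p = 0.052), LPS+Tβ4 against LPS 0.88 (-0.18 to 1.93, adjusted p = 0.28), and LPS+Tβ4 against saline -0.42 (-1.47 to 0.63, adjusted p = 0.55). The LPS value passed without saline replicate 1 (-1.53, edgeR adjusted p = 0.038), without LPS replicate 3 (-1.67, 0.033) and without LPS+Tβ4 replicate 3 (-1.24, 0.047). It also passed in DESeq2 (-1.26, adjusted p = 0.021), with a term for urothelial transcripts (-1.39, edgeR adjusted p = 0.044), and in the libraries rich in them (-1.95, edgeR adjusted p = 0.029).

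Cd2ap (ENSMUSG00000061665, chromosome 17, 42792951 to 42876389) encodes an adaptor that links nephrin to actin in podocytes and takes part in endocytosis in many other cells. Unlike the other 7 genes it was higher after LPS. Its levels were 240, 200 and 391 CPM in the LPS+Tβ4 libraries, 470, 395 and 204 CPM in the LPS libraries, and 127, 160 and 164 CPM in the saline libraries. Every library of both LPS groups lay above the saline libraries, and LPS+Tβ4 and LPS overlapped. Means were 277 ± 101, 356 ± 137 and 150 ± 20.3 CPM in LPS+Tβ4, LPS and saline kidneys (SD, n = 3 each). Cd2ap rose in LPS kidneys to 2.38 times the saline level (1.25 ± 0.34, edgeR adjusted p = 0.019), a call lost without saline replicate 1 (1.19, edgeR adjusted p = 0.064). LPS+Tβ4 against LPS gave -0.36 (-1.14 to 0.41, edgeR adjusted p = 0.55). LPS+Tβ4 against saline gave 0.89 (0.11 to 1.67, edgeR adjusted p = 0.097). It passed without LPS replicate 3 (0.89, edgeR adjusted p = 0.039) and in DESeq2 (0.90, adjusted p = 0.036). It also passed with a term for urothelial transcripts (edgeR adjusted p = 0.0062) and in the edgeR fit of the 6 libraries compared. The fit of the libraries poor in urothelial transcripts gave a positive estimate, but it holds 1 saline library and is not counted here.

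Synpo (ENSMUSG00000043079, chromosome 18, 60593973 to 60660142) encodes synaptopodin, an actin-bundling partner found in foot processes and in dendritic spines. It had 74.4, 70.2 and 49.8 CPM in the LPS+Tβ4 libraries, 28.4, 56.1 and 44.9 CPM in the LPS libraries, and 83.7, 57.8 and 67.4 CPM in the saline libraries. The LPS libraries lay below the saline libraries, and the LPS+Tβ4 libraries overlapped both. No comparison passed: LPS against saline was -0.69 (-1.30 to -0.08, edgeR adjusted p = 0.066), LPS+Tβ4 against LPS 0.59 (-0.02 to 1.20, adjusted p = 0.21), and LPS+Tβ4 against saline -0.10 (-0.71 to 0.50, adjusted p = 0.81). LPS against saline passed without LPS replicate 2 (-0.88, edgeR adjusted p = 0.041), at a mean of at least 5 FPKM (-0.70, 0.045) and with a term for urothelial transcripts (-0.67, 0.041). In the libraries poor in urothelial transcripts, 1 of LPS and 1 of saline, the estimate was -0.83. LPS+Tβ4 against saline turned to 0.10 without saline replicate 1 and to 0.08 without LPS+Tβ4 replicate 3. For Ptpro the same omissions gave 0.09 and 0.04.

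Plce1 (ENSMUSG00000024998, chromosome 19, 38481109 to 38783588) encodes phospholipase C epsilon, a Ras-regulated enzyme needed for podocyte maturation. Its levels were 9.97, 11.8 and 12.7 CPM in the LPS+Tβ4 libraries, 11.7, 5.89 and 5.89 CPM in the LPS libraries, and 12.1, 12 and 13.7 CPM in the saline libraries. LPS replicate 1 lay just below the saline libraries and inside the LPS+Tβ4 range, while LPS replicates 2 and 3 were lower than every other library. LPS against saline was -0.68 (-1.33 to -0.03, edgeR adjusted p = 0.085), LPS+Tβ4 against LPS 0.55 (-0.10 to 1.20, adjusted p = 0.27), and LPS+Tβ4 against saline -0.13 (-0.78 to 0.52, adjusted p = 0.78). Without LPS replicate 1, LPS against saline was -1.05 (edgeR adjusted p = 0.0032) and LPS+Tβ4 against LPS was 0.96 (adjusted p = 0.015). With a term for neural transcripts, LPS against saline was -0.88 (edgeR adjusted p = 0.016).

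Wt1 (ENSMUSG00000016458, chromosome 2, 105126529 to 105173612) encodes the zinc finger factor that maintains podocyte identity and is also made by the mesothelium. It had 8.21, 7.44 and 5.99 CPM in the LPS+Tβ4 libraries, 1.46, 7.67 and 9.73 CPM in the LPS libraries, and 12.8, 8.89 and 12.7 CPM in the saline libraries. LPS replicate 1, with 95 counts of Wt1, was far below the other LPS libraries, 1 of which lay inside the saline range. The interval was wide in each comparison: LPS against saline was -0.87 (-2.14 to 0.41, edgeR adjusted p = 0.24), LPS+Tβ4 against LPS 0.20 (-1.07 to 1.47, adjusted p = 0.86), and LPS+Tβ4 against saline -0.67 (-1.94 to 0.61, adjusted p = 0.43). Without LPS replicate 1 these were -0.35, -0.28 and -0.63, so LPS+Tβ4 against LPS changed sign.

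**Figure D2:**
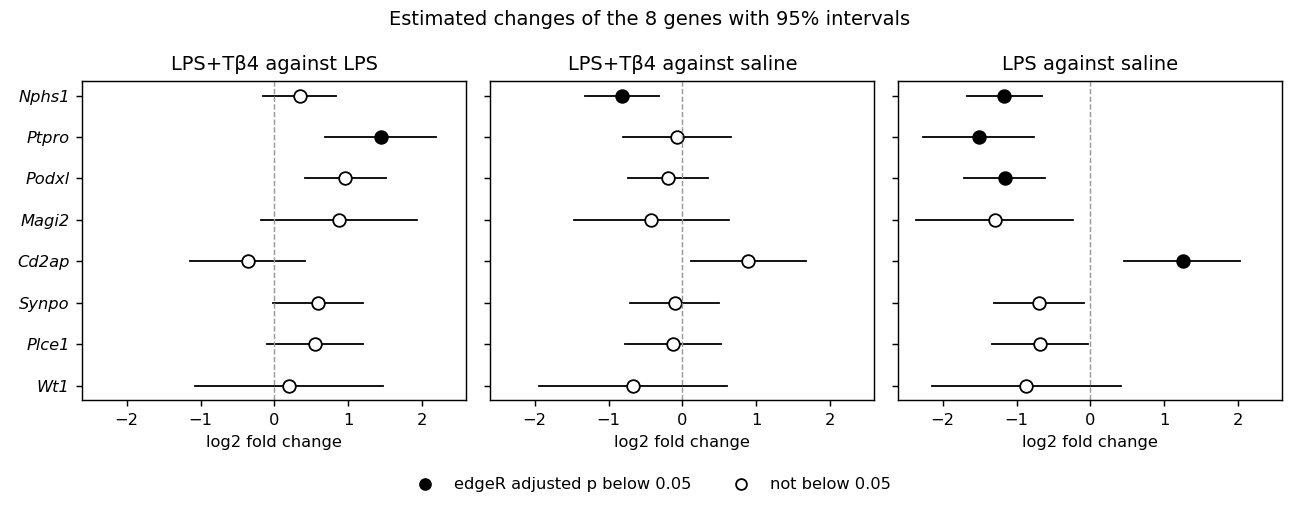
Estimated log2 fold change of each gene from edgeR with its 95% interval, for LPS+Tβ4 against LPS, LPS+Tβ4 against saline and LPS against saline; filled points passed at an adjusted p below 0.05. Nphs1, Ptpro and Podxl lie left of 0 and Cd2ap right of 0 in LPS against saline, Ptpro is the filled point in LPS+Tβ4 against LPS, and Nphs1 the filled one in LPS+Tβ4 against saline.

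The 8 genes did not vary over libraries in the same way. Centred on each gene's own mean and averaged over the 8 genes, log2 CPM was 0.20, 0.24 and 0.00 in the LPS+Tβ4 libraries, -0.84, -0.23 and -0.35 in the LPS libraries, and 0.38, 0.17 and 0.44 in the saline libraries. LPS replicate 1 was the lowest of its group for 6 of the 8 genes and the highest for 2, Cd2ap and Plce1. LPS+Tβ4 replicate 3 was the lowest of its group for 6 of 8, and so was saline replicate 2. Synpo lay closest to the mean profile, with a root-mean-square difference of 0.16 on the log2 scale over the 9 libraries, followed by Podxl at 0.22 and Nphs1 at 0.294. Ptpro was at 0.418, Plce1 at 0.43, Magi2 at 0.44 and Wt1 at 0.51, and Cd2ap stood apart at 0.954. Among tested genes outside the 8 with a mean of at least 1 FPKM, the profiles closest to the same mean belonged to Lrp3 (0.118), Zkscan5 (0.119), Blvra (0.124), Ciao1 (0.127), Galk2 (0.129), Dync2li1 (0.133), Txnrd2 (0.135) and Dars (0.142). This likeness is a description over 9 libraries, and none of those genes stands in the podocyte lists used here.

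Transcripts of tissue that can come along with a kidney piece split the libraries. The summed level of 5 urothelial genes (uroplakins and Krt5) was 1.1, 1.06 and 94.1 CPM in the LPS+Tβ4 libraries, 63, 49.2 and 3.28 CPM in the LPS libraries, and 1.68, 64.5 and 79.9 CPM in the saline libraries. Upk2 and Upk3a were at 0 in LPS+Tβ4 replicates 1 and 2 and in LPS replicate 3, and Krt5 in saline replicate 1. None of the 5 passed in any comparison. Within the LPS groups the libraries with more of these transcripts were also those with more Cd2ap: 391 CPM against 240 and 200 with LPS+Tβ4, and 470 and 395 CPM against 204 with LPS. Saline libraries showed a smaller step, 160 and 164 CPM against 127. In log2 CPM, LPS exceeded saline for Cd2ap by 1.41 among the urothelium-rich libraries (2 and 2) and by 0.69 among the poor ones (1 and 1). LPS+Tβ4 against LPS was -0.14 and 0.10 in the same split.

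The genes that fell had lower values in LPS on both sides of the split, where the poor side holds 1 LPS and 1 saline library. LPS minus saline was -0.93 among the rich and -1.47 among the poor libraries for Nphs1, -1.55 and -1.51 for Ptpro, and -1.13 and -1.32 for Podxl. LPS+Tβ4 minus LPS was 1.42 and 1.31 for Ptpro and 0.79 and 0.99 for Podxl. These rest on 1 LPS+Tβ4 and 2 LPS libraries among the rich, and on 2 and 1 among the poor. Magi2 and Wt1 differed more: LPS minus saline was -1.80 and 0.05 for Magi2 and -1.48 and -0.38 for Wt1. Fitted on the 5 rich libraries alone, the 3 falls kept their direction and no longer passed, with edgeR adjusted p of 0.055 for Nphs1, 0.096 for Ptpro and 0.076 for Podxl. With urothelial transcripts as a term in the edgeR fit, Cd2ap in LPS against saline was 1.18 (adjusted p = 0.0023) and Ptpro in LPS+Tβ4 against LPS was 1.32 (adjusted p = 0.059).

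**Figure D3:**
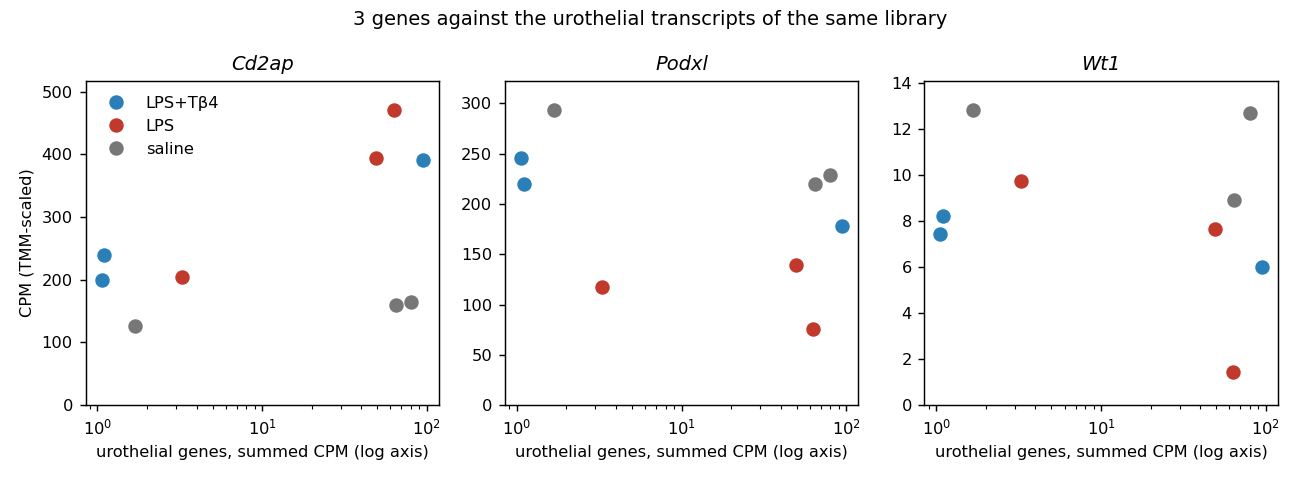
Cd2ap, Podxl and Wt1 in counts per M after TMM scaling against the summed urothelial transcripts of the same library on a log axis, 1 point per library in blue for LPS+Tβ4, red for LPS and grey for saline. Cd2ap is higher in the LPS+Tβ4 and LPS libraries on the right than in those on the left, while Podxl keeps LPS below the other groups on both sides.

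Mesothelium, which makes Wt1, was followed with 7 genes. Their summed level was 67.5, 58.1 and 204 CPM in the LPS+Tβ4 libraries, 165, 141 and 38.9 CPM in the LPS libraries, and 123, 186 and 132 CPM in the saline libraries. Muc16 was at 0 in 8 of the 9 libraries and so was Bnc1. Of the 4 tested genes 1 passed, Gpm6a, which fell in LPS (-1.83, edgeR adjusted p = 0.0017), beside 22.2% of all tested genes. Gpm6a was also lower in LPS+Tβ4 than in saline (-1.21, edgeR adjusted p = 0.018), beside 11.8% of all tested genes. The second of these calls was lost without saline replicate 1 or 2 or LPS+Tβ4 replicate 3 (-1.15 to -0.95, edgeR adjusted p from 0.051 to 0.063). Krt19 and Gpm6a made up most of these sums. Krt19 ran from 1.5 to 142 CPM with LPS+Tβ4, from 1.77 to 97.6 CPM with LPS and from 0.892 to 26.8 CPM with saline. Gpm6a averaged 51.7, 33.6 and 119 CPM and Lrrn4 0.0905, 0.0243 and 0.145 CPM in LPS+Tβ4, LPS and saline. Whether the sums followed the amount of mesothelium was not tested. The part of mesothelium in the Wt1 values was not tested.

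Neural transcripts marked the LPS+Tβ4 libraries. The summed level of 10 neuronal and glial genes was 549, 661 and 652 CPM there, 220, 120 and 31.9 CPM in the LPS libraries, and 72.3, 67.2 and 65.3 CPM in the saline libraries, and none was at 0 in any library. Against LPS, 8 of the 10 rose and none fell (median 3.49), beside 4.5% and 2.33% of all tested genes. Against saline 9 of 10 were higher (median 3.52), beside 12.3% of all tested genes. Mobp, a myelin gene, had 56.9 ± 5.44, 1.98 ± 1.17 and 1.27 ± 0.294 CPM in LPS+Tβ4, LPS and saline kidneys (SD, n = 3 each). These transcripts move with the group in which 7 of the 8 podocyte genes, all but Cd2ap, had estimates above the LPS level. With the neural sum as a term in the edgeR fit, LPS+Tβ4 against LPS was 2.19 for Ptpro (adjusted p = 0.15), 1.37 for Podxl (0.18) and 1.02 for Synpo (0.33), and none of the 15015 genes passed. Since every LPS+Tβ4 library lay above every other library in this sum, treatment and neural transcripts cannot be told apart in these libraries.

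Other slit diaphragm genes and their adaptors (14 genes, 11 tested) had a median change of 0.03 in LPS against saline. Over all tested genes the median was 0.02, and 20.9% rose and 22.2% fell. Those that rose, 2 in number, were Iqgap1, a scaffold that binds nephrin and is made in most cells (0.94, edgeR adjusted p = 0.0092), and the adaptor Nck2 (0.60, adjusted p = 0.038). Over all 22 alternatives the Nck2 estimate ranged from 0.41 to 0.79, and its call was lost in 11 of them. The urothelium-rich subset was among those 11. So was leaving out replicate 2 or 3 of saline or of LPS, or replicate 1 or 2 of LPS+Tβ4 (0.41 to 0.69, edgeR adjusted p from 0.051 to 0.13). None passed in LPS+Tβ4 against LPS, where the median was 0.09, nor in LPS+Tβ4 against saline, where it was 0.12.

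Other podocyte-enriched genes (15, of which 14 were tested) mostly fell after LPS. Of the 14, 10 fell and none rose, while 22.2% of all tested genes fell and 20.9% rose. The median was -1.07 beside 0.02 over all tested genes. Vegfa, the growth factor with which podocytes sustain the capillary endothelium and which tubules also make, fell to 80.8 ± 8.77 CPM in LPS kidneys, against 221 ± 18.3 CPM in saline kidneys (SD, n = 3 each, -1.45, edgeR adjusted p = 0.00022). Thsd7a, a foot process membrane protein and a target antigen in membranous nephropathy, fell by 1.88 (adjusted p = 0.00059), Rab3b by 2.02 (0.0017) and the peptidase gene Mme, which the proximal tubule also expresses, by 1.75 (0.0023). With Tβ4 added to LPS, 1 of the 14 rose, beside 4.5% of all tested genes. This was Vegfa (0.61, edgeR adjusted p = 0.044), at 123 ± 16.2 CPM in LPS+Tβ4 kidneys (SD, n = 3). Over all 23 alternatives the estimate ranged from 0.31 to 0.81, and the call was lost in 14 of them. Among those 14 were the fits without any 1 saline library, without LPS replicate 2 or 3 and without LPS+Tβ4 replicate 1 or 2 (0.54 to 0.69, edgeR adjusted p from 0.067 to 0.18). Compared with saline, 11.8% of all tested genes were lower in LPS+Tβ4 kidneys and 12.3% higher. Of the 14, 5 were lower and none higher (median -0.70). Among them were Vegfa (-0.84, edgeR adjusted p = 0.0046), Thsd7a (-1.20, 0.0077), Mme (-1.49, 0.0085) and Clic5 (-1.12, 0.018). Clic5 lost its call without saline replicate 1 or 3 or LPS+Tβ4 replicate 1 or 3 (-1.08 to -0.98, edgeR adjusted p from 0.062 to 0.071).

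Genes of the podocyte actin cytoskeleton (14, of which 13 were tested) went both ways: 5 rose and 3 fell in LPS against saline, with a median of -0.03. Over all tested genes 20.9% rose and 22.2% fell there. The Rac-regulating Arhgap24 fell furthest, with 50.7, 76.9 and 57.8 CPM in the LPS+Tβ4 libraries, 37.1, 23.7 and 26.8 CPM in the LPS libraries, and 231, 204 and 228 CPM in the saline libraries. No 2 groups overlapped. It fell in LPS by 2.92 (edgeR adjusted p = 8.3e-05), rose in LPS+Tβ4 against LPS by 1.08 (adjusted p = 0.026) and was lower in LPS+Tβ4 than in saline (-1.84, adjusted p = 0.00088). Over all 23 alternatives the estimate in LPS+Tβ4 against LPS ranged from 0.69 to 1.28, and its call was lost in 11 of them. Those included the fit of the 6 libraries, the neural term, and leaving out replicate 2 or 3 of saline or of LPS, or replicate 1 or 2 of LPS+Tβ4 (0.89 to 1.21, edgeR adjusted p from 0.0504 to 0.11). Slc9a3r2, an adaptor that binds podocalyxin, fell (-1.19, edgeR adjusted p = 0.0021), while Arhgdia (0.95, adjusted p = 0.00082) and Myh9 (1.19, 0.0023), both made in most cells, rose. In which cells of the whole kidney Arhgap24 and the other genes fell or rose was not tested. Between LPS+Tβ4 and LPS, where 4.5% of all tested genes rose and 2.33% fell, 2 genes rose and none fell (median 0.07): Arhgap24 and Ddn. Ddn encodes dendrin, a protein of the slit diaphragm that is also abundant in brain, and it had 25.1, 32 and 22 CPM in the LPS+Tβ4 libraries, 1.29, 2.84 and 3.7 CPM in the LPS libraries, and 16.5, 6.65 and 13.1 CPM in the saline libraries. Its rise of 3.34 (edgeR adjusted p = 0.013) ended above every saline library, in the libraries with the most neural transcripts. Treatment and neural transcripts cannot be told apart there. Over all 22 alternatives the Ddn estimate ranged from 2.23 to 4.64, and its call was lost in 6 of them. Those included the fit of the 6 libraries, the replicate block and the neural term. Leaving out LPS replicate 2 or LPS+Tβ4 replicate 2 also ended the call (3.17 to 3.39, edgeR adjusted p of 0.056 and 0.057). In LPS+Tβ4 against saline 3 genes of this list were higher and 2 lower, with a median of 0.43, beside 12.3% and 11.8% of all tested genes.

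Of 9 podocyte transcription factors, 7 were tested and 1 passed: Zhx2 fell in LPS (-0.70, edgeR adjusted p = 0.0074), where 22.2% of all tested genes fell. The median was 0.25 in LPS against saline, -0.02 in LPS+Tβ4 against LPS and 0.14 in LPS+Tβ4 against saline, with no call in the last 2 comparisons. In the list for glomerular basement membrane and podocyte adhesion, 4 of 12 genes rose and 4 fell in LPS against saline, with a median of 0.38. Over all tested genes 20.9% rose and 22.2% fell there. The falls included the type IV collagen chains that podocytes lay down: Col4a3 (-1.90, edgeR adjusted p = 8.4e-05), Col4a4 (-1.54, 0.00021) and Col4a5 (-2.05, 0.0026). In which cells of the whole kidney these transcripts fell was not tested. Cd151, a tetraspanin partner of integrins, rose (0.95, edgeR adjusted p = 0.0039). In LPS+Tβ4 against LPS, where 4.5% of all tested genes rose and 2.33% fell, Col4a3 alone passed (0.58, edgeR adjusted p = 0.046). The median of the list was -0.13 there. Col4a3 had 157, 201 and 153 CPM in the LPS+Tβ4 libraries and 110, 110 and 121 CPM in the LPS libraries. Over all 23 alternatives the estimate lay between 0.45 and 0.71, and that call was lost in 18 of them. It was lost without any single library other than LPS replicate 1 (0.45 to 0.64, edgeR adjusted p from 0.053 to 0.18). Col4a3 was lower in LPS+Tβ4 than in saline (-1.32, edgeR adjusted p = 0.00072). In that comparison 3 genes of the list were higher and 4 lower (median 0.22), beside 12.3% and 11.8% of all tested genes.

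**Figure D4:**
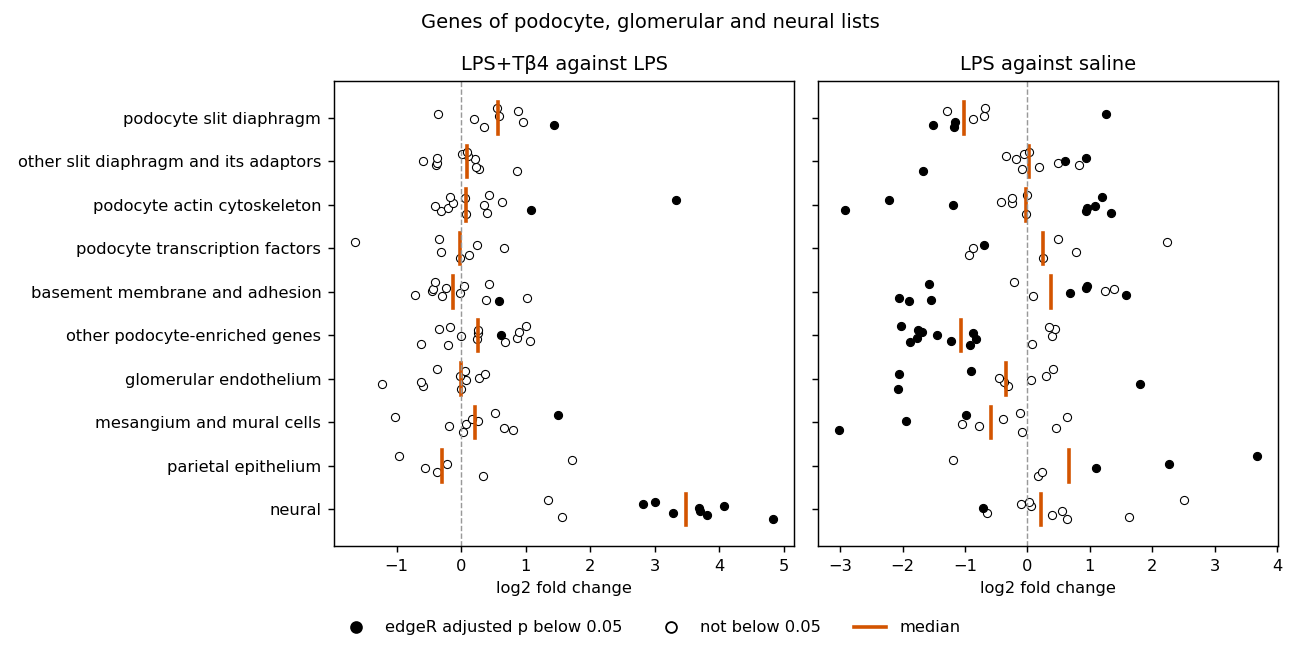
Log2 fold change of every tested gene of 10 lists from edgeR, LPS+Tβ4 against LPS on the left and LPS against saline on the right, filled where the adjusted p was below 0.05, with a bar at the list's median. The proximal tubule list (median -2.52 in LPS against saline) is not drawn, nor are the urothelial and mesothelial lists. In LPS against saline the medians of the 8 podocyte genes and of the other podocyte-enriched genes are -1.01 and -1.07, and in LPS+Tβ4 against LPS the neural list (3.49) lies furthest right of those drawn.

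Lists for other cells of the glomerulus were read beside the 43.1% of all tested genes called in LPS against saline, and their shares stand below or near it. Of 10 tested glomerular endothelial genes, 3 fell and 1 rose in that comparison (median -0.34), among them Ehd3 (-2.08, edgeR adjusted p = 0.00044) and the angiopoietin receptor Tek (-2.05, 0.0063), which fell, and the plasminogen activator Plat (1.81, 0.01), which rose. None passed in LPS+Tβ4 against LPS (median -0.01), and 3 were lower in LPS+Tβ4 than in saline (median -0.51), beside 11.8% of all tested genes. Of 10 mesangial and mural genes, 3 fell and none rose after LPS (median -0.58), the integrin Itga8 by the most (-3.02, edgeR adjusted p = 0.00016). Cspg4 encodes the pericyte proteoglycan NG2, which glial precursors also make. It was the 1 gene of this list higher in LPS+Tβ4 than in LPS (median of the list 0.22), beside 4.5% of all tested genes. Cspg4 had 35.2 ± 5 against 12.4 ± 3.15 CPM (SD, n = 3 each, edgeR adjusted p = 0.014). Over all 22 alternatives its estimate ranged from 0.96 to 1.83, and its call was lost in 5 of them. Those included the fit of the 6 libraries, the replicate block and the neural term. Leaving out LPS+Tβ4 replicate 2 also ended the call (1.38, edgeR adjusted p = 0.062). Of 6 parietal epithelial genes, 3 rose and none fell after LPS (median 0.67): Akap12 (3.68, edgeR adjusted p = 0.00013), Cd44 (2.26, 0.002) and Pax8 (1.09, 0.0042). Cldn1, Pax2 and Cldn11 did not pass, and Cldn11 had the lower mean in LPS kidneys (2.93 CPM, against 6.7 CPM in saline). Which cells of the whole kidney made the transcripts that rose was not tested. None of the 6 passed in LPS+Tβ4 against LPS (median -0.30). The labelled tissue showed its tubular markers: 8 proximal tubule genes, none at 0 in any library. They summed to 1104, 1615 and 1038 CPM in the LPS+Tβ4 libraries, 602, 1323 and 2593 CPM in the LPS libraries, and 9628, 8359 and 10949 CPM in the saline libraries. In LPS 6 of the 8 fell (median -2.52), beside 22.2% of all tested genes.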

How the data were processed

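Strand-specific libraries of kidney poly(A) RNA from 9 mice were read from both ends, per the labels' protocols. The authors deposited 1 table with a raw count and an FPKM value for each library and each of 34310 Ensembl gene IDs. Per the submitters' processing notes, cutadapt 1.9, HISAT2 2.2.1, StringTie 2.1.6, DESeq2, edgeR and the build GRCm38 were involved, in roles that the notes list does not state. Which program counted the reads, with which annotation release and strand setting, is not given in the sources used here.

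Groups came from the treatment label. The quasi-likelihood test of edgeR 4.0.16 (R 4.3.3) was run on the deposited counts after TMM scaling, in 1 model of 9 libraries with a mean for each group, and gave 2-sided tests of 3 comparisons. Genes with a mean of at least 0.5 FPKM entered (15015), with Benjamini-Hochberg adjustment across them and a threshold of 0.05. An SE was taken as the absolute change over the root of its F value. The code was tested on simulated data. The 8 genes and the 12 other gene lists were chosen with earlier results of these data known. All 8 genes are named in each comparison. From another list, up to 4 genes with the smallest adjusted p in a comparison could be named; values of Ddn in further comparisons were added after they were seen. A result withheld for evaluation is not reported here. Likeness is the root-mean-square difference of centred log2 CPM (0.5 added) from the mean of the 8 genes.

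Alternatives were median-of-ratios scaling, other filters (none, a mean of at least 5 FPKM, filterByExpr), DESeq2 1.42.0, limma 3.58.1 on log2(FPKM + 1) and log2(FPKM + 0.1), robust estimation, the 6 libraries compared, a replicate block, terms for urothelial and neural sums, and each library left out. Fits of urothelium-rich (over 10 CPM) and urothelium-poor libraries were added after seeing the data. The rich fit holds 1 LPS+Tβ4 library, and the poor fit holds 1 saline and 1 LPS library. Comparisons that rest on 1 library in a group have no spread in that group, and no conclusion is drawn from their counts of calls. Library totals, 53.0 to 62.0 M counts, set the depth. Promoters are RefSeq windows. Plots used matplotlib 3.10.9 (Python 3.11.15).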

Additional observations from a re-analysis of the deposited data

How the results depend on the processing

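Over 76 single-gene results and 1715 alternative values, 1480 kept their direction and side of the threshold, 187 no longer passed, 24 passed anew and 24 changed sign. The 4 calls among the 8 genes in LPS against saline were 4 to 5 when a library was left out and 2 in the urothelium-rich libraries. All genes called there (6473) ranged from 4884 to 6903 without a library and were 3754 at a mean of at least 5 FPKM and 3730 in the rich libraries. In LPS+Tβ4 against LPS, the 1 call among the 8 genes ranged from 0 to 3 without a library. It was 0 with no filter, in the fit of the 6 libraries and with the urothelial or the neural term. It was 2 in DESeq2 and in limma on log2(FPKM + 1) and log2(FPKM + 0.1). The 1025 genes called ranged from 68 (without LPS+Tβ4 replicate 2) to 2672 (without LPS replicate 1). They were 647 with no filter, 638 at 5 FPKM, 2442 in DESeq2, 3 in the 6 libraries, 0 with the neural term, 0 in the rich and 2404 in the poor libraries. In this comparison the rich fit holds 1 LPS+Tβ4 library and the poor fit 1 LPS library. Those groups have no spread, so no conclusion is drawn from the rich and poor counts. For LPS+Tβ4 against saline, the 1 call was 0 to 2 without a library. It was 0 with no filter, at 5 FPKM (3 of the 8 tested), in limma with both pseudocounts and with the neural term. It was 2 in DESeq2, the 6 libraries and with the urothelial term. The 3617 genes called ranged from 2119 to 4544 and were 2268 at 5 FPKM, 1451 with the neural term and 871 in the rich libraries. The rich fit again holds 1 LPS+Tβ4 library, so no conclusion is drawn from its count in LPS+Tβ4 against saline. Same-numbered libraries of different groups deviated with correlations of -0.66 to 0.32 (mean -0.16), and differently numbered ones with -0.48 to 0.51 (mean 0.07). No closer likeness of same-numbered libraries was seen, which with 3 libraries per group cannot exclude that the numbers pair the mice. With a replicate block the calls among the 8 genes were 3 in LPS against saline (Nphs1, Ptpro and Podxl, Cd2ap having an edgeR adjusted p of 0.053), 0 in LPS+Tβ4 against LPS (5 genes in all) and 0 in LPS+Tβ4 against saline.

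On the FPKM scale the median of all genes shifted by 0.11, 0.04 and 0.14 (pseudocount 1) and 0.14, 0.06 and 0.19 (pseudocount 0.1) in LPS against saline, LPS+Tβ4 against LPS and LPS+Tβ4 against saline. Genes called higher and lower were then 737 and 209 in LPS+Tβ4 against LPS with 0.1, beside 675 and 350 in edgeR. In LPS+Tβ4 against saline they were 2465 and 1327 with 1 and 2560 and 1204 with 0.1, beside 1852 and 1765. In LPS+Tβ4 against saline, limma with pseudocounts 1 and 0.1 gave 0.03 and 0.06 for Plce1, 0.00 and 0.00 for Podxl, 0.10 and 0.13 for Ptpro, and 0.09 and 0.10 for Synpo. With the neural term the same comparison gave -0.52 for Cd2ap, 1.05 for Magi2, 0.26 for Podxl, 0.77 for Ptpro, 0.39 for Synpo and 1.75 for Wt1, and LPS+Tβ4 against LPS gave -0.26 for Plce1. When a library was left out, LPS+Tβ4 against saline ranged from -0.19 to 0.09 for Ptpro and from -0.22 to 0.10 for Synpo, above 0 without saline replicate 1 (0.09 and 0.10) or LPS+Tβ4 replicate 3 (0.04 and 0.08). In the poor libraries Cd2ap was 0.08 and Wt1 -0.34 in LPS+Tβ4 against LPS, and Magi2 was 0.12 in LPS against saline and 0.70 in LPS+Tβ4 against saline. Wt1 in LPS+Tβ4 against LPS ranged from -0.28 (without LPS replicate 1) to 0.66. The causes were not tested. Each of the 8 genes had at least 95 counts in every library.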
